A study of Mus musculus with 2 samples.

Results

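The genes described here are the NFAT transcription factors and calcineurin, the phosphatase that acts on them. They comprised 10 genes, taken by gene name from both lists of nascent transcripts. The members were Nfatc1, Nfatc2, Nfatc3, Nfatc4 and Nfat5 for the factors, Ppp3ca, Ppp3cb, Ppp3cc and Ppp3r1 for the subunits of calcineurin, and Rcan1 for an inhibitor of the enzyme. A total of 9 of the 10 genes had a transcript in at least 1 library, out of 11054 gene names in the series. They carried 92 of the 43122 transcripts called in untreated cells and 66 of the 51365 called after interleukin-4 (IL-4).

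Calcineurin is a heterodimer of a catalytic A subunit and a regulatory B subunit, and it becomes active when calcium rises and calmodulin binds to it. It removes phosphate groups from NFAT proteins held in the cytoplasm, which then enter the nucleus and bind DNA at sites with a GGAAA core, often beside AP-1. Kinases such as GSK3 and DYRK phosphorylate NFAT again and drive it out of the nucleus. NFATc1 is known as the central factor of osteoclast formation from macrophage precursors, while NFAT5 lacks the calcineurin binding region and is known for the response to high salt. Most of what is known of the pathway comes from lymphocytes, in which cyclosporin A and FK506 block calcineurin.

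The study measured nascent RNA by GRO-seq, in which polymerases already engaged on DNA extend their transcripts in isolated nuclei with a labelled nucleotide. The cells were wild-type mouse bone marrow-derived macrophages (BMDMs) from animals of 8 to 12 weeks, grown for 6 days in supernatant of L929 cells, a fibroblast line used as a source of M-CSF. Both groups shared this differentiation, and they differed by the addition of 20 ng/ml IL-4 for 1 h to one of them. Run-on reactions were made in duplicate and pooled, which left 1 library per condition (n = 1), so that no value below has a replicate and no difference could be tested.

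The deposited list of each library gives transcribed segments, each called on 1 strand, with their position, annotation and a score to 1 decimal. The scaling of the score and the depth of the libraries are unknown. The median segment scored 0.3 over 227 bp in control, and 0.2 over 312 bp in the IL-4 library. A segment takes the name of the gene with the nearest promoter, which can differ from the gene in which it lies. The value of a gene was the highest score among the segments with its name, and log2 ratios (IL-4 over control) were centred on the median of the 8879 genes with a value in both libraries, which was -0.38 before centring. A centred ratio of at least 2-fold was counted as a change, and the range in brackets after a ratio is what rounding to 1 decimal allows. In bulk nuclei, fewer cells transcribing a gene and less transcription per cell cannot be told apart.

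Markers of macrophages were called in both libraries. All 10 macrophage markers were called in each, with summed highest scores of 24.3 in control and 23.6 after IL-4, and none differed by 2-fold. Of 4 fibroblast markers none was called, and of 6 T cell markers only Cd8a was, with Cd3e, Cd3g and Lck absent from both lists. Cd79a was the only B cell marker called of 4. Of 5 neutrophil markers S100a8 was called in both libraries and Mpo in control alone, at a score of 0.6. Of 5 osteoclast markers Ctsk and Atp6v0d2 were called in both libraries, whereas Acp5, Calcr and Ocstamp were in neither. Their summed highest score was 0.9 in control and 0.4 after IL-4, with 7 segments in each library. Both genes were within 2-fold after centring, with log2 ratios of -0.62 for Ctsk and -0.94 for Atp6v0d2.

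Of the 10 genes, Nfatc2 differed most in the number of segments, with 18 segments in control and none after IL-4. Another 8 genes were called in both libraries, and Nfatc4 was called in neither. Among these 8 genes, 2 were at least 2-fold lower after IL-4 (Ppp3cb and Ppp3cc), 1 was at least 2-fold higher (Ppp3r1), and 5 stayed within 2-fold. Over all genes with a value in both libraries 8.62% were at least 2-fold lower and 8.06% at least 2-fold higher. The median centred log2 ratio of the 8 genes was -0.16, where the median of all genes is 0 by construction, and the ratios ran from -1.62 to 1.19. None of the 3 changes held over its whole rounding range. The genes were chosen by family, with their segment numbers and highest scores in this same contrast already known, so these counts and values are a description.

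**Figure D1:**
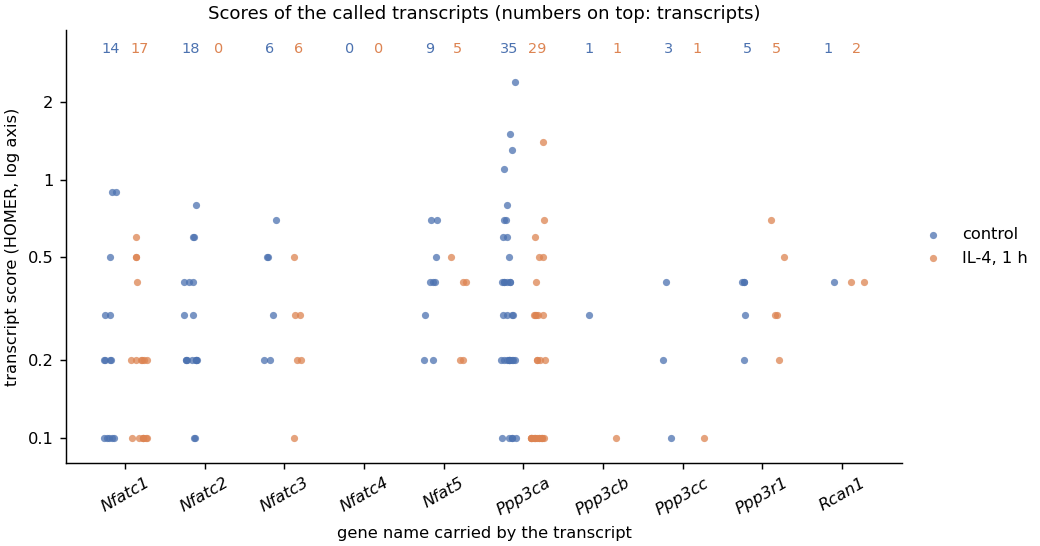
Score of every called segment named for each of the 10 genes (vertical log axis, score as deposited), with control in blue and IL-4 in orange and the number of segments on top. Points are segments of 1 library per condition, not replicates, and are spread sideways only for legibility. Ppp3ca had the highest score in both libraries (2.4 and 1.4), Nfatc2 had 18 segments in control and 0 after IL-4, and Nfatc4 had none.

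Among the NFAT factors, Nfatc2 (ENSMUSG00000027544.16) encodes NFAT1, a main NFAT protein of resting lymphocytes. The gene spans chr2:168476410-168601657 on the minus strand in mm10. Its 18 control segments all lay inside the gene on its own strand, 17 in introns and 1 at a promoter, and they covered 3.38% of its length. The highest, at chr2:168564764-168564998 in intron 3, had a score of 0.8. A pair of segments, at chr2:168548776-168548876 and chr2:168561571-168561753, followed with 0.6 each, and the lowest score was 0.1. Scores therefore were spread along the gene from its promoter to a segment 110.17 kb from its 5′ end, and did not come from a single place. A repeat was named for 5 of the 18.

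After IL-4 the gene held 0 segments on either strand. The nearest IL-4 segments lay 245.3 kb away on one side, named for Mocs3, and 337.5 kb away on the other, named for Zfp64. In control the nearest ones outside the gene were at 269.9 kb, named for Adnp, and at 329.9 kb, named for Zfp64. Segments this far from the gene do not show whether calling inside it was alike in the libraries. Of 1017 genes with 10 or more control segments, 7 had none after IL-4 (0.688%), and Nfatc2 was 1 of them. The other 6 were Dapk1, Fam214a, Nxph4, Rnf150, Slc7a7 and Smad3. Counting segments inside annotated genes on their own strand in place of names, 6 of 981 genes lost all of theirs, with Nfatc2 again among them. Both shares rest on genes selected for 10 or more segments in control. In the other direction, Cabp7, Cish, Fyn, Glrx, Rin3, Shc4, St7, Tnip3 and Uck2 had 0 control segments and 10 or more after IL-4. Fyn had 67 and St7 39. With the missing value set to 0.1, the lowest score above 0 in the files, the centred log2 ratio of Nfatc2 was -2.68, a value that follows from this choice.

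Nfatc2 has a pair of annotated start sites in the promoter set, and the control signal was at one of them. The 250 bases before each site are shown because the downstream site is where the only promoter segment of the gene was called. The sequences are from RefSeq on GRCm38.p6, the same build as mm10, 5′ to 3′ on the gene's strand, with each NFAT core (GGAAA, or TTTCC for the other strand) in capitals. The first window lies at chr2:168590366-168590615 and the second at chr2:168601658-168601907.
Nfatc2 downstream promoter: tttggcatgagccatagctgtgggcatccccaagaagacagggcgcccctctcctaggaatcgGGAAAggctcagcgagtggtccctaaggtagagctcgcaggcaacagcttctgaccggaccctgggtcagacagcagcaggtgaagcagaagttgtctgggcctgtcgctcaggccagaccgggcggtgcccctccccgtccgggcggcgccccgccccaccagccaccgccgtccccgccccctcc
Nfatc2 upstream promoter: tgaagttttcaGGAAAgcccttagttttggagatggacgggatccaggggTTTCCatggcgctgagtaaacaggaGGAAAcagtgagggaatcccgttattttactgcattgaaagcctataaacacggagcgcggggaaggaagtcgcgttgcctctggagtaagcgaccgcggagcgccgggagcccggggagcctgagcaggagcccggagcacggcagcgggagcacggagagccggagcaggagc
The control segment at chr2:168590167-168590350, with a score of 0.2, began close to the downstream window, which held 1 core. No segment was called within 1 kb of the upstream start site in either library, and the window before it held 3 cores.

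**Figure D2:**
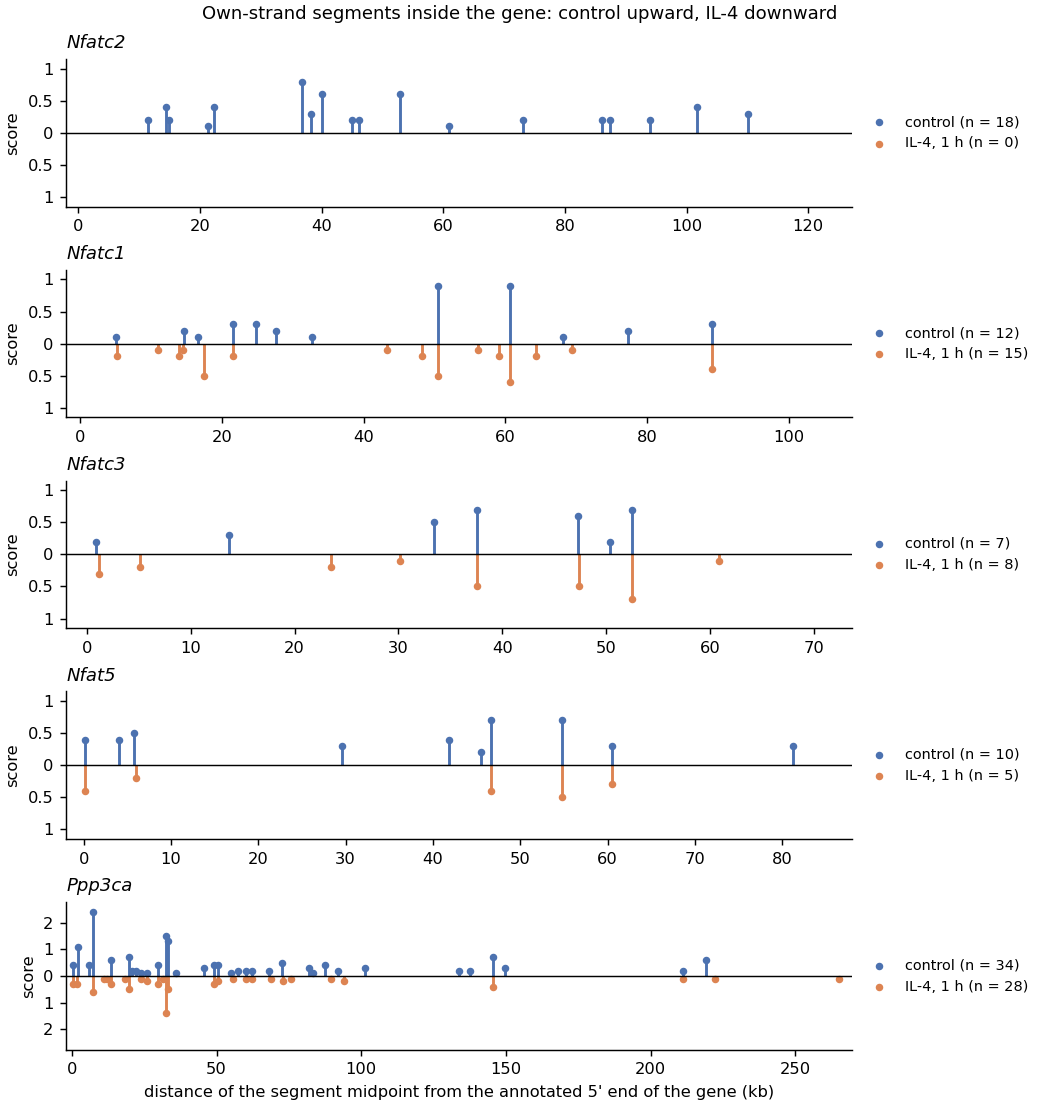
Segments called inside Nfatc2, Nfatc1, Nfatc3, Nfat5 and Ppp3ca on the strand of the gene, whatever name they carry, at the distance of their midpoint from the 5′ end of the gene (kb). The length of each line is the score, upward for control and downward for IL-4, on a wider scale for Ppp3ca. Nfatc2 held 18 segments in control and 0 after IL-4, while the other genes held segments in both libraries.

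Nfatc1 (ENSMUSG00000033016.16, chr18:80606205-80713071, minus strand) had 14 segments in control and 17 after IL-4, so that in contrast to Nfatc2 the number did not go down. Its highest score was 0.9 in control and 0.6 after IL-4, giving a centred log2 ratio of -0.21 (-0.41 to -0.01). The 0.9 was reached by 2 control segments, and both had a counterpart on the same strand, at 0.6 and 0.5. The segment at its internal start site had a score of 0.1 over 235 bp in control and 0.2 over 501 bp after IL-4. Of the 5 control segments inside the gene with its name and a counterpart, 4 scored lower after IL-4 and 1 higher, where 54.1% of all matched control segments were lower. Beyond the 5′ end of the gene, 3 control and 2 IL-4 segments with the name Nfatc1 lay in Atp9b, with scores between 0.1 and 0.5, and the 2 pairs among these were also lower after IL-4.

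Nfatc3 (ENSMUSG00000031902.10, chr8:106058840-106130537, plus strand), which encodes NFAT4, had 6 segments in each library. Its highest score was 0.7 in control and 0.5 after IL-4, giving a centred log2 ratio of -0.11 (-0.36 to 0.14), in the same stretch of intron 5. At its first exon the segment had a score of 0.2 over 252 bp in control and 0.3 over 768 bp after IL-4, and the segment upstream on the opposite strand also had 0.2 and 0.3. Of the 6, 4 control and 5 IL-4 segments lay inside the gene on its strand, while 1 in each library was on the opposite strand and 1 control segment lay outside the gene. A further 3 segments in each library lay inside Nfatc3 on its strand under the name 1810019D21Rik. By overlap with the gene on its own strand it thus held 7 and 8 segments, the highest score was 0.7 in both, and the centred log2 ratio was 0.36. Limiting the named segments to the own strand left the ratio at -0.11. The direction for Nfatc3 thus depended on which segments were assigned to it, and also on the gene value and filter. Of the 12 ways of computing it that were tried, 6 gave a ratio below 0 and 6 above 0, from -0.49 to 1.64.

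Nfatc4 (ENSMUSG00000023411.12, chr14:55823144-55833943, plus strand), the NFAT gene best known from neurons and heart, had no segment with its name, inside its body or within 1 kb of its start in either library. With unknown depth this says only that no transcript was called.

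Nfat5 (ENSMUSG00000003847.16, chr8:107293470-107379517, plus strand) had 9 control segments and 5 after IL-4. The highest score was 0.7 in control and 0.5 after IL-4, giving a centred log2 ratio of -0.11 (-0.36 to 0.14). The 5′ UTR segment stood at 0.4 in both libraries, over 248 bp and 226 bp, and the one upstream on the other strand at 0.2 in both. The difference lay further in, where control segments without a counterpart were in introns and an exon. The scores of the pairs were 0.5 and 0.2 in intron 2, 0.7 and 0.4 in intron 4, and 0.7 and 0.5 in intron 6. Of its 5 pairs, 3 were lower after IL-4 (60.0%), where it was 54.1% over all matched control segments. The scores of the segments with its name summed to 3.8 for control and to 1.7 after IL-4, and those inside the gene on its strand covered 1.5% and 1.12% of it. A further 2 control segments and 1 IL-4 segment inside the gene carried the name Nqo1, and with these the covered shares were 2.16% and 1.3%. Signal at the start was therefore equal in the printed scores while fewer segments were called further in.

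**Figure D3:**
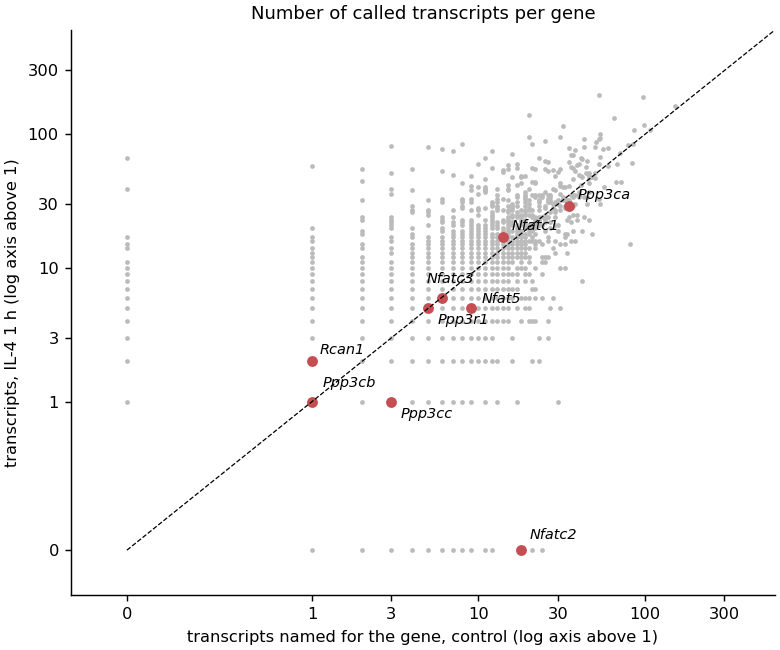
Number of segments named for each gene in control (horizontal) and after IL-4 (vertical), on axes that are logarithmic above 1 and include 0. Grey points are all genes, red points the NFAT and calcineurin genes, and the dashed line marks equal numbers. Nfatc2 lies on the floor of the plot (18 and 0), Ppp3ca just below the line (35 and 29) and Nfatc1 just above it (14 and 17).

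The genes of the catalytic subunits differed in the number and highest score of their segments, and also in length. Ppp3ca spans 267.6 kb, Ppp3cb 47.2 kb and Ppp3cc 71.6 kb. At the 5′ end their own-strand control segments had scores of 0.4, 0.3 and 0.2. Ppp3ca (ENSMUSG00000028161.17, chr3:136670124-136937727, plus strand), which encodes the alpha isoform of calcineurin A, had the most segments, 35 in control and 29 after IL-4. Its highest score was 2.4 in control and 1.4 after IL-4, giving a centred log2 ratio of -0.40 (-0.48 to -0.32). The whole rounding range was below 0, though within 2-fold. The ratio was below 0 under all 12 ways of computing it that were tried, from -1.51 to -0.33. These ways reuse the same libraries and are not independent. Of all genes with a value in both libraries, 28.1% had a ratio at or below that of Ppp3ca.

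Most segments of Ppp3ca lay in intron 1, 27 of 35 in control and 23 of 29 after IL-4, and so did most of its lower pairs. Pairs elsewhere were lower as well, with 0.7 and 0.4 in intron 2 and 0.2 and 0.1 in intron 5. The promoter segment had a score of 0.4 over 939 bp in control and 0.3 over 1072 bp after IL-4, and the upstream segment on the opposite strand 0.8 and 0.7. The highest control segment, chr3:136677258-136677656 on a (TG)n repeat, had 2.4, and its IL-4 counterpart 0.6. A 108 bp segment at chr3:136672005-136672112 had 1.1 in control, with 0.3 after IL-4. In contrast, a segment on a (TTTTTG)n repeat at chr3:136702682-136702784 had 1.5 and 1.4, and it gave the highest IL-4 score of the gene. Of 18 control segments with a counterpart, 16 scored lower after IL-4, 1 was equal and 1 higher. That is 88.9% lower, whereas over all matched control segments it was 54.1%. Repeats were named for 18 of 35 segments in control and 9 of 29 after IL-4, and over all segments these shares were 28.1% and 26.0%. The segments of Ppp3ca were also longer after IL-4, covering 2.78% of the gene in control and 3.73% after IL-4. Their part in the lower scores was not tested.

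Ppp3cb (ENSMUSG00000021816.11, chr14:20499364-20546573, minus strand), the beta isoform, had 1 segment with its name in each library, at 0.3 in control and 0.1 after IL-4. The centred log2 ratio was -1.21 (-2.43 to -0.36). These segments were not on the same strand: the control one was at the 5′ UTR on the strand of the gene, and the IL-4 one was on the opposite strand. The IL-4 segment on the gene's own strand at this place, chr14:20546242-20546528, had a score of 0.3 as well but carried the name 1810062O18Rik. An intron segment starting at 20522898 had 0.5 in both libraries. By overlap with the gene on its own strand there were 3 segments in each library, the highest was 0.5 in both, and the centred log2 ratio was 0.36. The lower value of Ppp3cb was therefore found only when the segments of both libraries were assigned by name.

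Ppp3cc (ENSMUSG00000022092.11, chr14:70217865-70289471, minus strand), the gamma isoform known from testis, had 3 control segments and 1 after IL-4. The highest score was 0.4 in control, in a B1_Mus2 repeat of intron 1, and 0.1 after IL-4. The centred log2 ratio was -1.62 (-2.79 to -0.84). At the 5′ UTR the segments overlapped, with 0.2 in control and 0.1 after IL-4. The ratio was below 0 in all 11 settings that gave one, and it was -0.68 without segments on repeats. A score of 0.1 is the lowest above 0 in the files.

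Ppp3r1 (ENSMUSG00000033953.10, chr11:17159263-17200375, plus strand) encodes calcineurin B, the regulatory subunit, and was the only one of the genes with a highest score at least 2-fold higher after IL-4. It had 5 segments in each library, with a highest score of 0.4 in control and 0.7 after IL-4. The centred log2 ratio was 1.19 (0.91 to 1.48). The 0.7 belonged to a 61 bp segment in intron 1, chr11:17162026-17162086, which overlapped the end of a 235 bp control segment with a score of 0.4. At the 5′ UTR the scores were 0.4 over 327 bp in control and 0.5 over 247 bp after IL-4, and those of the upstream segment on the other strand 0.2 and 0.3. All 5 control segments had a counterpart, of which 3 scored higher, 1 was equal and 1 was lower. The sum of score times length was 387.6 in control and 363.8 after IL-4, which gave a centred log2 ratio of -0.24. The higher value was thus carried by a short segment and did not hold when length was counted. Without centring the log2 ratio was 0.81, which is within 2-fold.

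The promoter of Ppp3r1 is shown because both its sense and its upstream opposite-strand segments had higher printed scores after IL-4. The scores, 0.4 and 0.5 for the sense segment and 0.2 and 0.3 for the other, are neighbouring printed values. Rounding to 1 decimal therefore allows almost no difference. The window is chr11:17159048-17159297, in the same form as above, and it has no NFAT core and hence no capitals.
Ppp3r1 promoter: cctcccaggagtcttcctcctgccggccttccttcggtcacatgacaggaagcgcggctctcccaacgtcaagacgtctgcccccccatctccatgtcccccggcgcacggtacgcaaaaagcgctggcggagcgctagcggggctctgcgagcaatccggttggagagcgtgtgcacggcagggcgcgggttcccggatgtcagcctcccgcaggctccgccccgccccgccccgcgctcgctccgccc

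Rcan1 (ENSMUSG00000022951.16, chr16:92391953-92470867, minus strand) encodes regulator of calcineurin 1, which binds the enzyme and inhibits it. It is known to be transcribed from alternative promoters, of which the internal one drives a short isoform and is a classical NFAT target. There was 1 control segment, and there were 2 after IL-4. The highest score was 0.4 in both libraries, and the centred log2 ratio of 0.38 (0.02 to 0.74) came from centring alone. Summed scores, which add the second IL-4 segment, gave 1.29, and score times length gave 1.47, both past 2-fold. The promoter segment at the upstream start had 0.4 over 104 bp in control and 0.4 over 239 bp after IL-4. That second segment, 82 bp on an (A)n repeat in intron 1, also had 0.4. No segment was called within 1 kb of the internal start in either library.

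Both Rcan1 promoters are shown because the segments separated them. The internal window lies at chr16:92400079-92400328 and the upstream window at chr16:92466170-92466419, with NFAT cores in capitals.
Rcan1 internal promoter: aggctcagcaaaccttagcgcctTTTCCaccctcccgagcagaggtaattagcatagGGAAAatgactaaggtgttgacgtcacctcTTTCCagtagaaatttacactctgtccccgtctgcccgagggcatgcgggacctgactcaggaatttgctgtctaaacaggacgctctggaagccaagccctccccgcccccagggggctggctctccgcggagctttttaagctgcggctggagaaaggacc
Rcan1 upstream promoter: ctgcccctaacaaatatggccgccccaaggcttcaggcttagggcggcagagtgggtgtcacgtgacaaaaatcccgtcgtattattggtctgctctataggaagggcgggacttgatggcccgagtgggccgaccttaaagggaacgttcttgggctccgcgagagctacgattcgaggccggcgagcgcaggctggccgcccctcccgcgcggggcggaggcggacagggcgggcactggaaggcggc
The internal window, where nothing was called, held 3 NFAT cores and 1 match to the AP-1 motif TGANTCA. The upstream window, which had the segment, held none of either. Over the 10 promoter windows of 7 of the genes that were read, 7 held an NFAT core, against 55.6% of 32851 mouse promoters of the same length. The STAT6 motif, TTC and GAA with 4 bases of any kind between them, was in 0 of the 10, and in 5.85% of all promoters, while TGANTCA was in 6.75%. Both strands were searched. These matches describe letters and do not show binding.

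**Figure D4:**
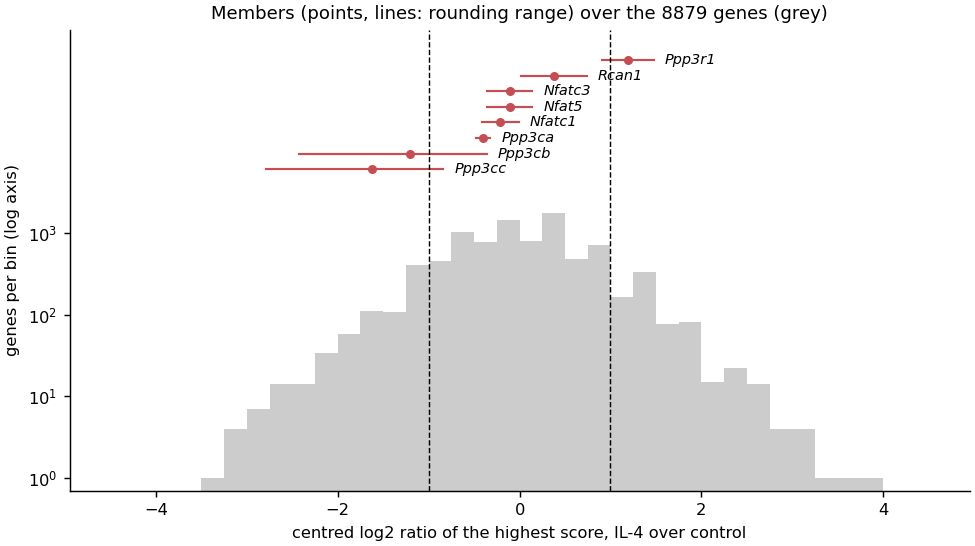
Histogram of the centred log2 ratio of IL-4 over control for the 8879 genes with a value in both libraries (genes per bin, log axis), with the 8 measured genes as red points above it, lines for their rounding range and dashed lines at 2-fold. The height of the red points has no meaning. Ppp3cc (-1.62) and Ppp3r1 (1.19) were the outermost, and 5 of the 8 lay within 2-fold.

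Segment by segment, 41 of the 92 control segments of the genes (44.6%) had a counterpart on the same strand after IL-4, where it was 62.6% over all control segments. Of the 66 IL-4 segments 41 had a control counterpart, and over all IL-4 segments 51.9% did. Of the 41, 28 scored lower after IL-4 (68.3%, and 54.1% over all matched control segments), 6 were equal and 7 were higher. Ppp3ca supplied 16 of the 28, and without it 12 of 23 were lower (52.2%). The number of segments was 0.717 of that in control, or 0.892 without Nfatc2 (74 and 66), whereas the number of all segments was 1.19 times that in control. Nfatc2 accounted for 18 of the control segments without a counterpart, and of the other 74 control segments 41 had one.

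Per length, the segments inside each gene on its own strand were summed as score times length per kb of gene, whatever name they carried. In control Ppp3ca had 12.6, Nfatc2 9.71, Nfatc1 8.57, Nfat5 8.3, Ppp3r1 7.63, Nfatc3 5.54, Ppp3cb 4.26, Ppp3cc 3.05 and Rcan1 0.527. After IL-4 Nfatc3 had 10.2, Nfatc1 8.95, Ppp3ca 8.28, Ppp3r1 6.58, Ppp3cb 5.39, Nfat5 4.03, Rcan1 1.63 and Ppp3cc 0.494. The order depended on segments with other names. Counting only those with the gene's own name, Ppp3ca was first in both libraries, at the same values. Nfatc3 then had 2.89 in control and 5.86 after IL-4, Nfatc1 7.62 and 7.75, Nfat5 6.3 and 3.49, and Ppp3cb 0.832 and 0, while the other genes kept their values. Without replicates, neighbours in either order cannot be told apart.

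The rest of the pathway was followed in a list of 62 other genes. Of these, 41 had a value in both libraries, with a median centred log2 ratio of -0.12. At least 2-fold lower were 3, none was higher, 38 were within 2-fold, 5 were called in control only, 1 after IL-4 only, and 15 in neither. Over all genes with a value in both libraries, 8.62% were at least 2-fold lower and 8.06% at least 2-fold higher. Of all genes called in either library, 8.58% were called in control only and 11.1% after IL-4 only. The lower ones were Mapk8, the kinase JNK1, Mef2a, a MADS-box factor that cooperates with NFAT, and Hspa1b, an inducible Hsp70 gene. Mapk8 had a highest score of 1.8 in control and 0.6 after IL-4, giving a centred log2 ratio of -1.21 (-1.37 to -1.05). Mef2a had 2.3 and 0.8, a ratio of -1.15 (-1.27 to -1.03). Hspa1b had 0.7 and 0.2, a ratio of -1.43. The first 2 were lower by 2-fold over their whole rounding range.

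By role, 10 of the 12 genes of calcium entry and release were within 2-fold and none was past it, among them Orai1, the pore of the calcium channel of the plasma membrane (0.6 and 0.3, a ratio of -0.62), and Stim1, its sensor in the endoplasmic reticulum (0.8 and 0.4, also -0.62). All 3 calmodulin genes were within 2-fold. The NFAT kinases had a median of -0.43 over 8 genes. Dyrk1a, one of those that export NFAT, stood just inside the limit with 5.8 in control and 2.3 after IL-4, a ratio of -0.96. The number of segments was instead higher after IL-4 for Dyrk1a (20 and 32), Orai1 (5 and 8) and Stim1 (4 and 5). Of the 14 known targets, 8 had no segment in either library, Acp5, Calcr, Nos2 and Il12b among them. Another 4 targets had a value in both libraries and were within 2-fold, with a median centred log2 ratio of -0.41. Among these 4, Il10 had 9 segments in control and 2 after IL-4, a ratio of -0.94. Nr4a1 had 1 segment in control, at 0.4, and 0 after IL-4. Egr2, an early growth response factor, had 0 segments in control and 8 after IL-4, with a highest score of 0.4. Mef2c had 3 segments in control and none after IL-4, with a highest score of 0.6.

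**Figure D5:**
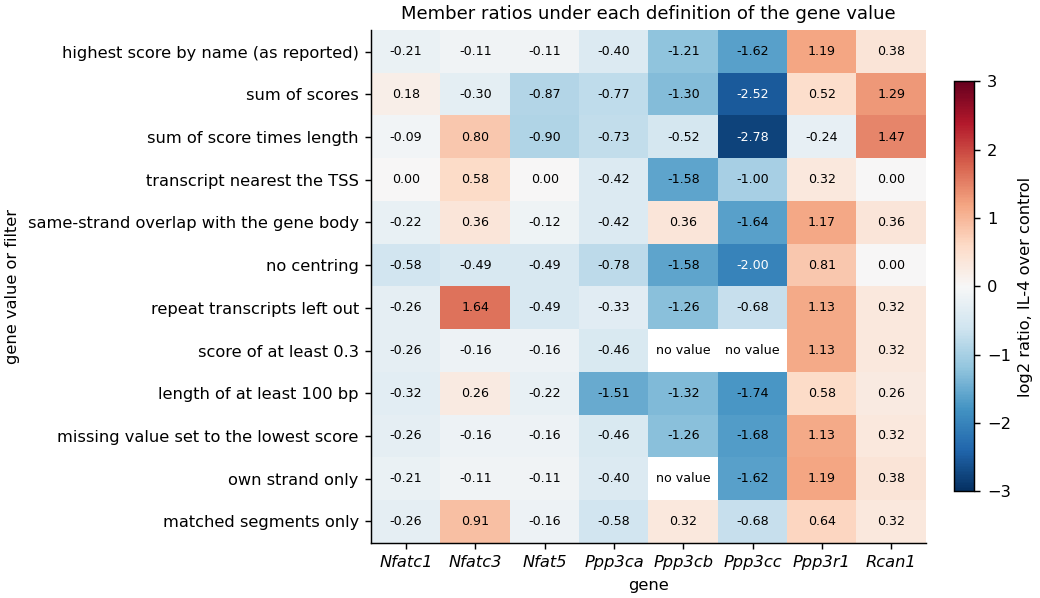
Log2 ratio of IL-4 over control of the 8 measured genes (columns) under each of the 12 ways of computing it (rows), centred in all but the setting without centring, with red for higher and blue for lower after IL-4. Ppp3ca and Ppp3cc were below 0 in every setting that gave a value, whereas Nfatc1, Nfatc3, Ppp3cb and Ppp3r1 lay on both sides of 0.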

How the data were processed

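GRO-seq was performed on 1 control and 1 IL-4 culture of mouse BMDMs. Per the submitters' processing notes, BWA 0.7.10, SAMtools 0.1.19 and HOMER 4.2 were used with the build mm10. The authors aligned the reads, called transcripts in each library separately with HOMER and annotated them, and deposited a score per transcript, rounded to 1 decimal. Its scaling is not given in the sources used here, and read counts were not used here, so depth and counting intervals are unknown.

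Samples were grouped by the treatment label. All transcripts were kept. Gene values, centring and the 2-fold limit were as described above, computed with Python 3.11.15, pandas 2.3.3 and numpy 2.4.6. The script was tested on simulated data. Gene positions came from GENCODE M21. Segments were paired where they shared at least 1 bp and the strand. Adgre1 and Spi1 were matched under the older symbols Emr1 and Sfpi1. With 1 library per condition no test, standard error or p-value was computed, and n in each group is 1.

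All 10 members were named. Of the other pathway genes, those past 2-fold, and those called in 1 library with a score of at least its median gene value (0.5 in control, 0.3 after IL-4), were named by rule, and the remaining ones were chosen after their values were seen. The members and lists were chosen with earlier results of these data known. The 11 alternatives comprised 9 planned ones and 2 chosen after seeing the data.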

Additional observations from a re-analysis of the deposited data

How the results depend on the processing

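No paired analysis was possible because each condition had 1 library, and for the same reason no replicate could be left out. Of 85 ratios of single genes under the 11 alternatives, 52 stayed within the rounding range, 30 moved outside it, and 3 called values changed sign. These were Ppp3r1 with score times length (-0.24), and Ppp3cb by overlap with the gene body (0.36) and over matched segments only (0.32). The cause was not tested, except that Ppp3cb's segments lay on opposite strands. The number of genes at least 2-fold lower, 2 as reported, was 1 with score times length, by gene body overlap, without repeats and on the own strand only, and 0 with scores of at least 0.3 and over matched segments. It was 3 with segments of at least 100 bp, which added Ppp3ca, and 3 with missing values set to the lowest score above 0, which added Nfatc2. The number at least 2-fold higher, 1 as reported, was 0 with the transcript nearest the TSS, without centring, with segments of at least 100 bp and over matched segments, and 2 without repeats, which added Nfatc3. With summed scores and with score times length it was again 1, but the gene was Rcan1 (1.29 and 1.47) and Ppp3r1 was within 2-fold. The median ratio, -0.16 as reported, was -0.53 with summed scores, 0.12 by gene body overlap, -0.54 without centring and 0.08 over matched segments. Over all genes, 24.3% were at least 2-fold lower and 5.98% higher without centring, and 27.7% and 11% with the transcript nearest the TSS, against 8.62% and 8.06% as reported. The own-strand and matched-segment alternatives were chosen after seeing the data. With unknown depth, a gene without a segment cannot be told from one below the calling limit.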

Other observations

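A control segment with the name Nfatc3 lay outside the gene, in an intron of Dus2, with a score of 0.5 over 63 bp on a (TTTG)n repeat. It had no counterpart after IL-4.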
